A study of Mus musculus with 4 samples.

Results

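The response of the liver to partial hepatectomy was compared between control mice and mice with a hepatocyte knockdown of Mcu, gene by gene, as the response in knockdown liver minus the response in control liver. A response is the log2 level at 30 h minus the level at 0 h within a genotype, and the value reported here is called the difference of responses: a negative value means that the knockdown response was the lower one. It was formed for all 19505 genes with 1 symbol, out of all 19505 such genes on the array, and a gene with several probe sets was read from the probe set of highest average level. No value was used to choose genes, so every gene has a difference of responses. A cut-off of 2-fold, which is 1 on the log2 scale, served to count genes.

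Control and knockdown liver were each taken at 0 h and at 30 h, and each of these 4 groups was 1 array of pooled RNA. All mice were males aged 10 to 12 weeks on a C57BL6J background, with both Mcu alleles flanked by loxP sites. The knockdown mice were injected through the tail vein with AAV8-TBG-Cre, and the control littermates with AAV8-TBG-Null, so the controls carried floxed alleles and virus as well; their genotype label reads Wild type. Surgery 5 weeks after the injection removed 70% of the liver, and the remnant was collected 30 h later. The series text speaks of pools of 4 animals, and no sham operation was sampled. The TBG promoter directs Cre to hepatocytes, so the other liver cells were not targeted. The labels do not agree in every place: some descriptions speak of chronic ethanol feeding, the description of the knockdown array at 30 h gives 1 h, and the genotype label of the knockdown arrays differs from the protocol in an item not reported here. Groups were taken from the sample titles.

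Mcu forms the pore of the mitochondrial calcium uniporter, the channel that lets calcium into the mitochondrial matrix. After partial hepatectomy the resting hepatocytes of the remnant leave quiescence, pass through G1 under the drive of cytokines and growth factors, and copy their DNA. In the mouse, hepatocytes reach DNA synthesis on the day after surgery, so 30 h falls in the period when genes of replication are expressed. An acute phase response of secreted liver proteins runs alongside. Mcu itself read 4.77 and 4.30 in control liver at 0 and 30 h and 2.83 and 2.63 in knockdown liver. It was lower in both knockdown pools, and its difference of responses was 0.27. Its mean level of 3.63 is on the dim side of the cut used below.

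Every value below is a difference between single arrays, with no replicate, no error and no test. The difference of responses adds the noise of all 4 arrays. It can equally be written as the gap between genotypes (knockdown minus control) at 30 h minus the gap at 0 h, so it shares arrays with each response and with each gap. Counts were made over the 9759 bright genes, those whose mean log2 level reached 3.83, the midpoint of the gene means. Near-identical genes, such as the Saa, Orm, Gstm, Cyp2a and histone families, may share probe signal.

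Over the bright genes the difference of responses had a median of -0.18, and 95% of genes lay between -1.32 and 1.07. It was within 0.5 of zero for 59.9% of them and below zero for 63.2%, the share against which counts below zero are to be read. At 2-fold, 725 bright genes (7.43%) had a lower response in knockdown liver and 316 (3.24%) a higher one, 10.7% in either direction. Counts of list members past 2-fold are to be read against these shares. Csk, the kinase that holds Src family kinases inactive, was the lowest at -2.73, and the metallothionein gene Mt2 the highest at 2.49. The values on either side of the cut-off were -1 and -0.99 for lower genes and 1 and 0.99 for higher genes.

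The direction depended on the level of the gene and on the scaling of the arrays. When all genes were cut by level into 10 groups of equal size, the median difference of responses was 0.14 to 0.19 in the 4 dimmest groups and -0.27 and -0.26 in the 2 brightest. Of dim genes, 855 were 2-fold higher and 411 lower. Olfactory, vomeronasal and taste receptors and keratin-associated proteins, families that liver is not known to express and that were singled out after their values were seen, had a median of 0.28 over 1500 genes. Of these, 183 (12.2%) were 2-fold higher and 19 (1.27%) lower, against 6% and 5.82% of all 19505 genes. Higher genes were 30.4% of the bright genes past 2-fold on the deposited scale. They were 55.2% when each array was centred on the median of its bright genes (492 higher and 399 lower), 41.4% after cyclic loess (370 and 523) and 41.6% after quantile normalization (372 and 522). For that reason each group of genes is read below against the median of all bright genes. The part of this drift in any single result was not tested.

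**Figure D1:**
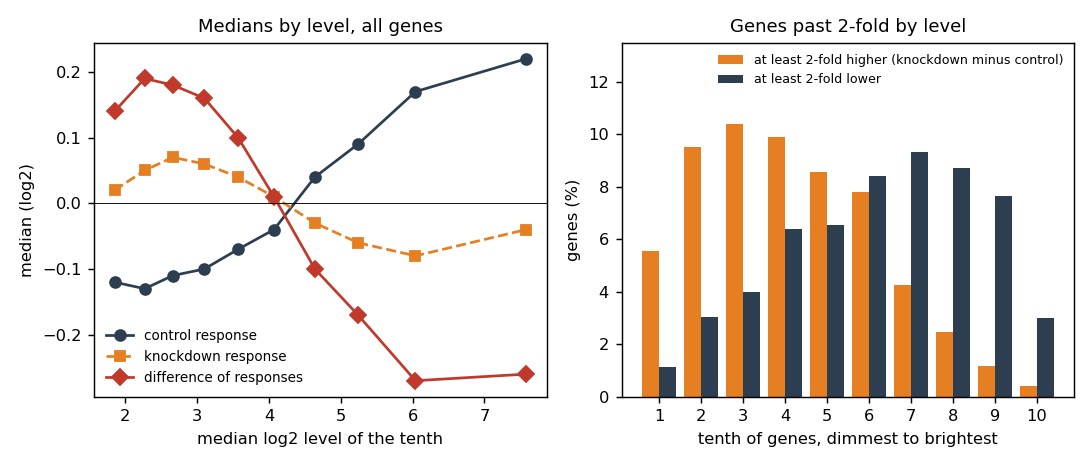
Left, median control response (circles), knockdown response (squares) and difference of responses (diamonds), all log2, against the median log2 level of 10 groups of genes of equal size, from all 19505 genes. Right, percentage of the genes in each group whose difference of responses was at least 2-fold higher or lower. The median difference of responses runs from 0.14 in the dimmest group to -0.26 in the brightest, and genes past 2-fold are mostly higher in the dim groups and mostly lower in the bright ones.

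Replication and other cell cycle genes were among those with a lower response in knockdown liver. Of the 20 lowest named genes, 14 were in none of the cell cycle lists used here and 6 were in them: the licensing factor Cdt1, the helicase subunit Mcm6, the ribonucleotide reductase subunit Rrm2, the folate carrier Slc19a1, the repressor E2f8 and the DREAM complex subunit Lin54. The 7 lists joined here cover origin licensing, the replication fork, deoxynucleotide and folate supply, G1 and S cyclins and kinases, E2F and Myb factors, mitotic entry and exit, and kinetochore and cytokinesis. Over their 120 bright members the median was -0.59. Of these members, 101 (84.2%, against 63.2% of all bright genes) lay below zero, 41 (34.2%, against 7.43% of all bright genes) were at least 2-fold lower, and 0 were 2-fold higher. The joined count of 41 was not formed under other scalings. List by list, the count of 2-fold lower members fell after centring, loess and quantile normalization, except for G1 and S cyclins and kinases. Over all bright genes it fell from 725 to 399, 523 and 522. With dim members included, 68 of 203 were at least 2-fold lower and 1 was higher. Further alternatives were added after the values were seen. With the recombination and kinesin lists joined as well, 44 of 152 bright members were 2-fold lower and 3 higher, and the median was -0.43. Some genes count as bright only through their levels at 30 h: in 29 of the 120 the mean of both 0 h arrays was under 3.83. Of these 29, 17 (58.6%) were at least 2-fold lower, against 18.5% of all bright genes with such 0 h levels. Among the other 91 the median was -0.42, and 24 (26.4%, against 7.0% of all bright genes also bright at 0 h) were at least 2-fold lower. The median response of the 120 genes was 0.99 in control liver and 0.30 in knockdown liver. In control liver 60 of them were at least 2-fold higher at 30 h than at 0 h, in knockdown liver 28, and 25 were so in both, against 5.98% and 2.64% of all bright genes in the control and knockdown response.

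A gene that is high in the control response tends to have a negative difference of responses by arithmetic alone. Of all 584 bright genes at least 2-fold higher in the control response, 259 (44.3%) had a 2-fold lower difference of responses, with a median of -0.88. Among the 60 cell cycle genes with such a control response the count was 36 (60.0%). Over the replication genes alone it was 18 of 25 (72.0%). Neither share has an error, and the genes were matched only on passing 2-fold, not on the size of the control response. A larger control response favours a negative value by the same arithmetic. The 60 are also part of the 584.

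Sites where replication starts are loaded with the helicase Mcm2-7 in G1 and fired in S phase, and this step stood lowest of all 66 lists with at least 6 bright members. The list of origin licensing and firing had a median of -1.25 over 15 bright members. Of these, 14 were below zero and 9 at least 2-fold lower, against 63.2% and 7.43% of all bright genes. The median stayed negative after centring (-1.07), loess (-1.15) and quantile normalization (-1.12). Under each of these scalings 8 members were at least 2-fold lower. Cdt1, which loads the helicase, read 2.77 and 6.56 in control liver at 0 and 30 h and 4.83 and 6.02 in knockdown liver, a difference of responses of -2.60. Its 2 levels at 30 h were close, and most of the gap was the higher level of the knockdown pool at 0 h. Mcm6 read 2.67 and 7.60 in control liver and 3.88 and 6.23 in knockdown liver, which gave -2.58. Both 0 h levels of Mcm6 were low, and the knockdown array was the higher one at 0 h and the lower one at 30 h. Topbp1, which takes part in firing, read 3.23 and 6.15 against 4.23 and 5.12, a value of -2.03. Mcm4, another helicase subunit, read 2.51 and 6.85 in control liver and 2.88 and 5.25 in knockdown liver, a value of -1.97. Here the pools were near each other at 0 h, and the gap was mostly at 30 h. Orc6 (-1.57) and Gins2 (-1.51), subunits of the origin recognition complex and of the replicative helicase, were further members past 2-fold. Control levels at 0 h near 2.7 are dim. In Cdt1, Mcm6, Topbp1, Mcm4 and Gins2 the mean of both 0 h arrays was under 3.83, so they count as bright only through 30 h. No median was formed for the members of this list that were also bright at 0 h. When all values under the median of the arrays were raised to that median, Cdt1 stood at -1.58, Mcm6 at -1.46, Gins2 at -0.86 and the list at -0.88.

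Promoter sequences were examined for the same genes, because E2F factors drive many of them at the start of S phase. Of the 15 bright members of the licensing list, 11 had a promoter in the RefSeq table, and 5 of these (45.5%) held an E2F match in the 250 bases before the start. A match was one of TTTGGCGC, TTTCCCGC, TTTGCCGC and TTTCGCGC on either strand. The share was 13 of 97 (13.4%) over the bright cell cycle genes and 6 of 32 (18.8%) over those at least 2-fold lower. It was 3.66% over all bright genes, 4.97% over all bright genes at least 2-fold lower, 4.84% over those 2-fold higher, and 1.86% over all 32851 promoters of the table. The 6 promoters behind the 18.8% are shown here to let the matches be seen in place. Each line gives the last 150 bases before the RefSeq start, 5′ to 3′ on the strand of the gene, with the E2F matches in capitals. In Mcm6 the upstream pair of matches overlaps, on opposite strands. The coordinates are on GRCm38.p6: Mcm6 at chr1:128359706-128359855 (minus strand), Mcm5 at chr8:75109359-75109508 (plus), Topbp1 at chr9:103305177-103305326 (plus), Cdk2 at chr10:128705052-128705201 (minus), Cenpm at chr15:82244337-82244486 (minus) and Lin52 at chr12:84451358-84451507 (plus).
Mcm6: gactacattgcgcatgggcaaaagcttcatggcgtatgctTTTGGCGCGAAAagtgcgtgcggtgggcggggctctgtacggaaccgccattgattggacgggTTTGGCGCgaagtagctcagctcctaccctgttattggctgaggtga
Mcm5: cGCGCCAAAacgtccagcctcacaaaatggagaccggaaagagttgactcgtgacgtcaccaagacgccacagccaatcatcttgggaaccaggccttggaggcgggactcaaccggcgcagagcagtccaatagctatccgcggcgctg
Topbp1: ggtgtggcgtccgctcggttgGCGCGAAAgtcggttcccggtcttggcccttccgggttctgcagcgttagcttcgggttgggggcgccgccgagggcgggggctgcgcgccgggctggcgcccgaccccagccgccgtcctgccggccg
Cdk2: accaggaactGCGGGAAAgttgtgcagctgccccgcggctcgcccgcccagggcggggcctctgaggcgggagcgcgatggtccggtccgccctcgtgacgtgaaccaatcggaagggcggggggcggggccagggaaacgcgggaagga
Cenpm: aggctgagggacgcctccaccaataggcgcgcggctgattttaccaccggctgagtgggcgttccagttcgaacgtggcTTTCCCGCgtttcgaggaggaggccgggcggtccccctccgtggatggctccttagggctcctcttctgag
Lin52: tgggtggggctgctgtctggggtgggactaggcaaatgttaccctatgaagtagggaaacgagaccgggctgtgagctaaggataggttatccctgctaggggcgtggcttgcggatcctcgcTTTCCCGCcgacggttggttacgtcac

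Of the motifs searched, E2F had the largest ratio between the bright cell cycle genes and all bright genes, and the CCAAT box the largest difference in percentage points; neither was tested. The CCAAT box was in 63.9% of the promoters of bright cell cycle genes and 40.4% of those of all bright genes. The cell cycle homology region CHR (TTTGAA) was in 26.8% and 13.2%. The other motifs searched were the E-box CACGTG (18.6% and 9.96%), the STAT site TTCNNNGAA (7.22% and 7.03%), the antioxidant response element TGACNNNGC (16.5% and 13.7%), and the metal response element as TGCACNC or TGCGCNC (37.1% and 33.0%). A match is a run of letters and was not tested for binding.

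The enzymes and clamps of the replication fork followed the licensing genes. Their list had a median of -0.88 over 20 bright members, with 17 below zero and 10 at least 2-fold lower. After centring 5 were at least 2-fold lower, after loess 9 and after quantile normalization 6. Asf1b, a chaperone that hands histones to newly copied DNA, read 3.72 and 6.81 in control liver and 4.45 and 5.76 in knockdown liver, a value of -1.78. The clamp loader subunit Rfc2 stood at -1.43, and the single-strand binding subunits Rpa2 and Rpa3 at -1.39 and -1.24, Rpa3 at -0.99 after quantile normalization. Over the licensing and fork lists together, 35 genes, the median gap between genotypes was 0.21 at 0 h and -0.75 at 30 h. At 30 h 32 of the 35 were lower in knockdown liver, and at 0 h 25 were higher.

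Building blocks of DNA were more mixed. The list of deoxynucleotide and folate supply had a median of -0.41 over 22 bright members, with 5 at least 2-fold lower. Rrm2, the regulated subunit of ribonucleotide reductase, read 3.4 and 7.09 in control liver and 4.20 and 5.50 in knockdown liver, a value of -2.39. Its mean over both 0 h arrays was just under 3.83, and with dim values raised it stood at -2.0. Slc19a1, which imports reduced folate, read 2.77 and 5.38 in control liver and 5.04 and 5.21 in knockdown liver, a value of -2.44, or -1.42 with dim values raised. The knockdown level of Slc19a1 was already high at 0 h and hardly differed between times. Adsl (-1.44) and Paics (-1.08) of purine synthesis and the mitochondrial folate enzyme Shmt2 (-1.36) were the further members past 2-fold. Paics was under 2-fold after centring (-0.90) and loess (-0.80).

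Of the cyclins and kinases of G1 and S phase, 2 of 13 bright members were at least 2-fold lower and the median was -0.43, or -0.22 with dim values raised. Ccne2, a cyclin that activates Cdk2 at the entry to S phase, read 2.01 and 6.51 in control liver and 2.45 and 4.94 in knockdown liver, a value of -2.01. Cdk2 itself read 3.73 and 6.10 against 4.22 and 4.76, a value of -1.83. Both genes were higher at 30 h in each genotype, and by less in knockdown liver. The transcription factors of this step, E2F, pocket protein and Myb factors, had a median of -0.77 over 15 bright members, 6 of them at least 2-fold lower. E2f8, an E2F target that represses others, read 3.52 and 6.09 in control liver and 4.15 and 4.56 in knockdown liver, a value of -2.16. Lin54, Lin9 and Lin52, core subunits shared by the DREAM and MuvB complexes, stood at -2.06, -1.43 and -1.04, although Lin52 was under 2-fold after centring (-0.86). E2f1 was at -1.20 and Mybl1 at -1.24. In Ccne2, E2f1 and Mybl1 the mean of both 0 h arrays was under 3.83, so they count as bright only through 30 h. With dim values raised they stood at -1.57, -1.18 and -1.64.

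**Figure D2:**
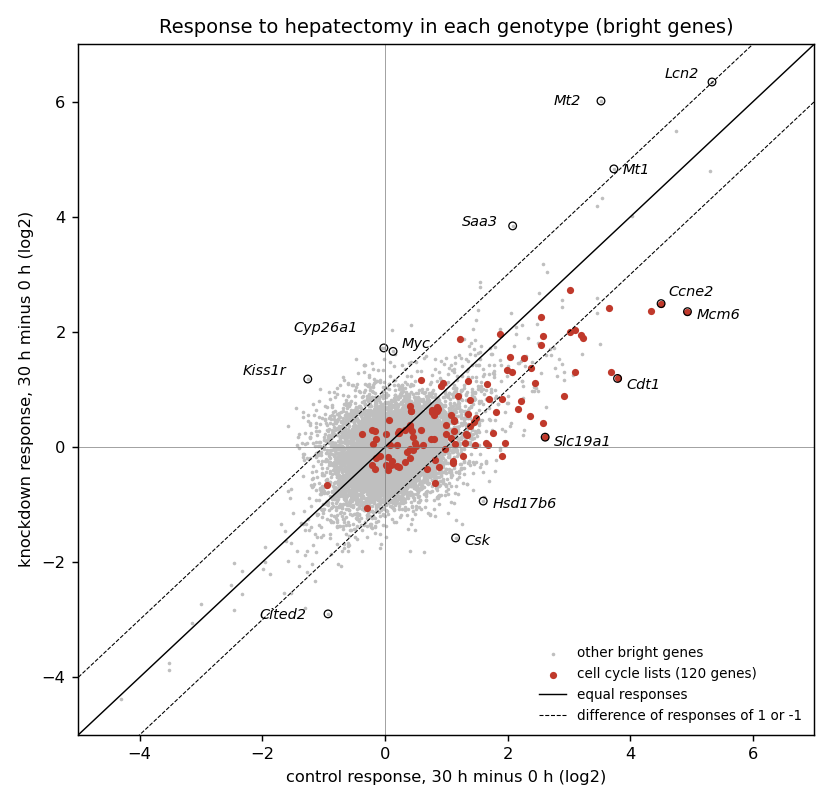
Knockdown response against control response, both 30 h minus 0 h on the log2 scale, for 9759 bright genes (grey) with the 120 bright genes of the cell cycle lists in red. The solid line marks equal responses and the dashed lines a difference of responses of 1 or -1. Most red points lie right of zero and under the solid line, 41 of them on or under the lower dashed line and 0 on or above the upper one, while Mt2 and Saa3 lie above the upper one.

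Mitotic genes, which act after DNA synthesis, had smaller values. The lists of mitotic entry and exit and of kinetochore, checkpoint and cytokinesis had medians of -0.62 over 18 and -0.60 over 17 bright members, with 4 and 5 at least 2-fold lower. After centring, loess or quantile normalization 1 and 4 were at least 2-fold lower. Over both lists, the median response was 0.91 in control liver and 0.28 in knockdown liver. Their median gap was -0.02 at 0 h and -0.58 at 30 h, and 32 of 35 were lower in knockdown liver at 30 h. Cenpm, a kinetochore protein, read 3.57 and 5.52 in control liver and 4.70 and 4.77 in knockdown liver, a value of -1.88. Nusap1 (-1.64) and the cytokinesis factor Ect2 (-1.52) followed, then Cdca3 (-1.42) and Mad2l1 (-1.34). In Nusap1, Ect2 and Cdca3 the mean of both 0 h arrays was under 3.83, so they count as bright only through 30 h. With dim values raised they stood at -1.13, -1.34 and -1.06. Ccnb2, a mitotic cyclin, was at -1.10 and under 2-fold after centring (-0.92). Kinesin motors as a family, mitotic or not, did not share the lower medians: theirs was 0.26 over 18 bright members, and 14 were above zero. Over all 38 measured members, dim ones included, the median was 0.16. Of the 38, 24 were above zero, 4 at least 2-fold lower and 1 higher. Members of that family went both ways. Kif20b, the 1 bright member at least 2-fold lower, read 2.99 and 6.2 in control liver and 3.06 and 4.67 in knockdown liver, a value of -1.60. It too counts as bright only through 30 h, and with dim values raised it stood at -1.53. Kif18b was the 1 bright member at least 2-fold higher, at 1.01, or 0.80 with dim values raised. Kif22 and Kifc1 were also above zero.

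Histone genes, whose RNA accumulates in S phase, had a median of -0.72 over 50 bright members, with 44 below zero and 12 at least 2-fold lower. The median stayed negative after centring (-0.55), loess (-0.50) and quantile normalization (-0.51). The members at least 2-fold lower were then 7, 6 and 7 in the same order. H2bc18 read 4.16 and 7.23 in control liver and 3.91 and 5.16 in knockdown liver, a value of -1.82. H1f1, a linker histone, read 4.43 and 7.34 against 5.25 and 6.42, a value of -1.74. In 46 of the 50 the knockdown level at 30 h was the lower one, and 26 were higher than control at 0 h. Recombination and mismatch repair genes differed among themselves: Brca2 stood at -1.60 and Rmi1 at -1.05, Rad54l at 1.28 and Fancl at 1.16. All 4 were under 2-fold with dim values raised, at -0.88, -0.46, 0.85 and 0.70 in the same order. The list median was 0.11 over 14 bright members and -0.10 with dim members included.

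Among genes that restrain the cycle, counts past 2-fold were near those of all bright genes, but the median was lower. Of 21 bright p53 targets and CDK inhibitors, 2 were at least 2-fold lower and 1 higher, against 7.43% and 3.24% of all bright genes. Their median was -0.43, or -0.27 with dim values raised and -0.25 after centring. Its departure from the median of all bright genes was -0.25, or -0.30 after loess and -0.10 with dim values raised. Cdkn1a, which encodes the CDK inhibitor p21, read 4.05 and 6.67 in control liver and 5.89 and 6.59 in knockdown liver, a value of -1.92. The 30 h levels were nearly equal, and the gap lay at 0 h, where the knockdown pool was higher. Cdkn2c, which inhibits Cdk4 and Cdk6, was at -1.24. Cdkn1c, an imprinted CDK inhibitor, went the other way at 1.06.

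The axis of interleukin-6, which primes hepatocytes for the cycle, had a median of -0.66 over 14 bright members. Of the 14, 12 were below zero and 4 at least 2-fold lower, against 63.2% and 7.43% of all bright genes. Over all 21 measured members, dim ones included, the median was -0.26. Socs3, a feedback inhibitor induced by STAT3, read 3.30 and 4.95 in control liver and 5.37 and 5.11 in knockdown liver, a value of -1.91. The knockdown level of Socs3 was high already at 0 h, above the control level at 30 h. The kinase Tyk2 read 4.85 and 5.92 against 5.84 and 5.31, a value of -1.60. Il6ra, the receptor subunit, was at -1.05 and Jak1 at -1.03, both under 2-fold after centring (-0.87 and -0.85). Stat3 itself was at -0.78.

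Genes with a 2-fold lower difference of responses came from either time. In 436 of the 725 the gap between genotypes was larger at 30 h, and in 285 it was larger at 0 h. A 2-fold gap was present at 0 h in 89 and at 30 h in 156, against 1.89% and 3.3% of all bright genes, while 486 of the 725 had neither and passed through the sum of smaller gaps. The gaps were of opposite sign in 667 (92.0%), against 51.8% of all bright genes. A large difference of the gaps favours both large gaps and opposite signs by arithmetic, so these counts are a description of the 725. Among the 41 cell cycle genes past the cut-off the gap was larger at 30 h in 31 and at 0 h in 10, and in 32 the knockdown response was still above zero. Slc19a1, Cdkn1a and Socs3 were among 37 genes, predicted genes left out, with a 2-fold gap at 0 h and a gap under 0.25 at 30 h. Kif20b, Orc6 and Ect2 were among 71 with the reverse pattern.

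**Figure D3:**
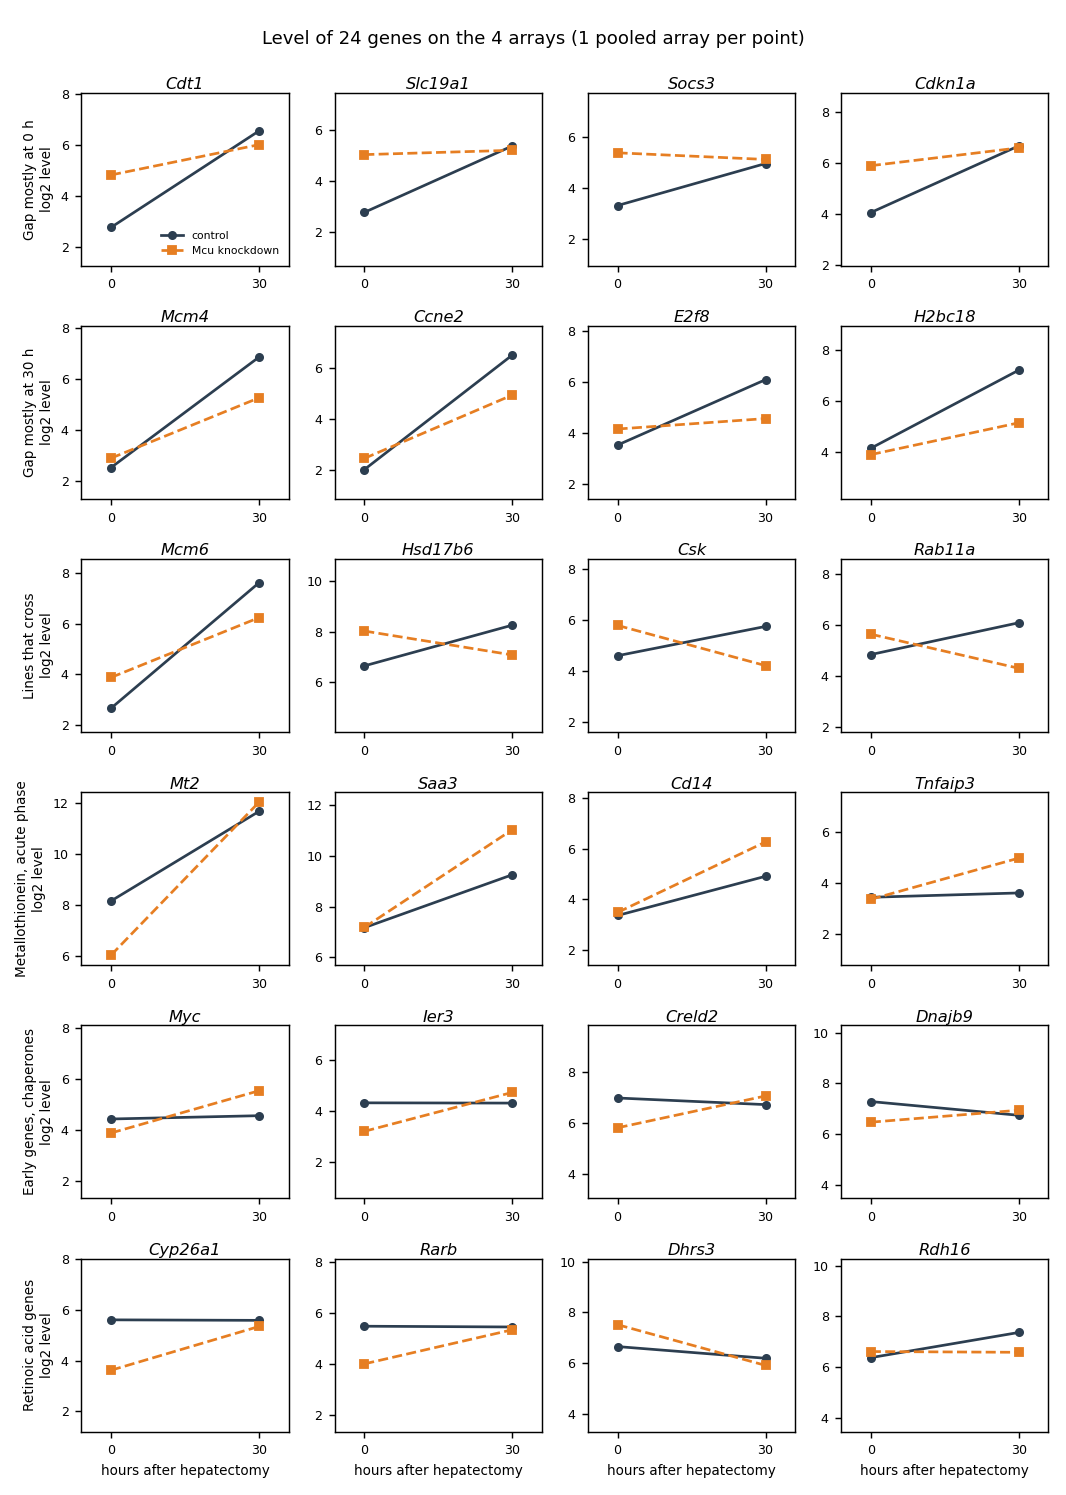
Log2 level of 24 genes at 0 and 30 h in control (circles, solid line) and Mcu knockdown liver (squares, dashed line), 1 pooled array per point, with every panel spanning the same number of log2 units. In the top row the gap is larger at 0 h (Slc19a1 reads 5.38 and 5.21 at 30 h). In the second it is larger at 30 h (Mcm4 6.85 and 5.25), and in the third the lines cross. Lines also cross in other panels, such as those of Cdt1 and Mcm4.

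Some of the lowest values belonged to genes outside the cycle whose responses ran in opposite directions. Csk read 4.61 and 5.76 in control liver and 5.80 and 4.22 in knockdown liver. Rab11a, a small GTPase of recycling endosomes, read 4.84 and 6.09 against 5.64 and 4.30, a value of -2.59. Each was the higher of the pair in knockdown liver at 0 h and the lower at 30 h, by under 2-fold for Rab11a at 0 h. Pltp, the phospholipid transfer protein of plasma lipoproteins, read 4.47 and 5.10 against 5.85 and 4.02, a value of -2.46. Cited2, a coregulator that limits hypoxia signalling, was lower at 30 h in both genotypes, from 6.09 to 5.16 in control liver and from 6.45 to 3.55 in knockdown liver, a value of -1.97. Responses of opposite sign were found in 530 of the 725 lower genes (73.1%) and in 282 of the 316 higher ones (89.2%), against 41.4% of all bright genes, and here too the choice by their difference favours opposite signs.

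Metabolic genes of the hepatocyte contributed single large values. Hsd17b6, a steroid dehydrogenase of periportal hepatocytes, read 6.65 and 8.25 in control liver and 8.02 and 7.08 in knockdown liver, a value of -2.54. The periportal list had a median of -0.53 over 23 bright members, with 18 below zero (63.2% of all bright genes were) and 3 at least 2-fold lower. The median was -0.30 after loess. The 3 genes were Hsd17b6, the aldehyde dehydrogenase Aldh1b1 (-1.40) and G6pc (-1.19), the last enzyme of glucose release. G6pc was at -0.94 after loess. Pericentral Wnt target genes had a median of -0.25, close to that of all bright genes. Among glycogen genes, Ppp1r3c and Ppp1r3d, which bring protein phosphatase 1 to glycogen, diverged. Ppp1r3c read 7 and 5.69 in control liver and 7.76 and 4.96 in knockdown liver, a value of -1.49. Ppp1r3d read 4.61 and 3.63 against 4.04 and 4.75, a value of 1.69. The phosphorylase kinase subunit Phka2 was at -1.72.

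Enzymes that conjugate foreign compounds had lower values too, led by glutathione transferases of the mu class. The list of glucuronosyl and glutathione transferases and carboxylesterases had a median of -0.44 over 46 bright members, or -0.20 after loess. Of the 46, 10 were at least 2-fold lower and 0 higher, against 7.43% and 3.24% of all bright genes. After centring, loess or quantile normalization 5 were at least 2-fold lower. Gstm2 read 7.02 and 8.90 in control liver and 7.97 and 7.92 in knockdown liver, a value of -1.93. It was higher at 30 h in control liver and level in knockdown liver. Gstm3 was at -1.44, Gstm4 and Gsta2 at -1.40, and Nqo1, another target of the antioxidant factor Nrf2, at -1.27. The antioxidant list, which shares members with the first, had a median of -0.44 over 30 bright members, 4 of them at least 2-fold lower. Cytochrome P450 genes had a median of -0.23 over 51 bright members, close to that of all bright genes.

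Markers of liver macrophages and sinusoidal endothelium, cells that the TBG promoter does not target, had lower medians as well. Kupffer cell markers had a median of -0.62 over 19 bright members, with 15 below zero (63.2% of all bright genes were). Of the 19, 3 were at least 2-fold lower, against 7.43% of all bright genes. The Kupffer median was -0.41 after loess. Vsig4, a complement receptor of these cells, read 4.85 and 5.97 in control liver and 5.70 and 5.34 in knockdown liver, a value of -1.48. Adgre1 (-1.07) and the scavenger receptor Marco (-1.03) were the others, and both were under 2-fold after centring (-0.89 and -0.85). Sinusoidal endothelial markers had a median of -0.45 over 25 bright members (-0.24 after loess), with 18 below zero. Fcgr2b (-1.21) and Gpr182 (-1.09, or -0.91 after centring) were past 2-fold, 2 of 25 against 7.43% of all bright genes. After loess and after quantile normalization 0 members were 2-fold lower. Pecam1, Lyve1 and Flt1 were among the 7 above zero. In pooled tissue, fewer cells of a type and less RNA per cell cannot be told apart.

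The other cell types gave the following summed levels, as log2 of the summed linear levels in control liver at 0 and 30 h and knockdown liver at 0 and 30 h. Kupffer markers were at 9.86, 10.3, 10.17 and 10.05, and sinusoidal markers at 10.1, 10.14, 10.36 and 10.01. Hepatocyte markers, all 21 of them bright, were at 15.89, 16, 16.01 and 15.99. Hepatocyte markers were thus high on all 4 arrays, as the tissue label implies. Neutrophil markers were at 8.94, 10.04, 8.89 and 10.27, with 18 of 21 dim, and erythroid markers at 8.32, 7.64, 8.28 and 7.64. Cholangiocyte markers ranged from 7.21 to 7.43 with 15 of 17 dim, lymphocyte markers from 7.51 to 7.63 with 19 of 22 dim, and stellate markers from 10.52 to 10.86. Their part in the values of the other groups was not tested.

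Of the 20 highest named genes, 18 had a mean level under 5.25, percentile 75 of the gene means, as had 17 of the 20 lowest. Mt2 and Saa3 were the others of the 20 highest. The highest difference of responses was that of Mt2, a metallothionein that binds zinc and copper. It read 8.15 and 11.67 in control liver and 6.02 and 12.03 in knockdown liver. Both pools were high at 30 h, and the knockdown pool was the lower one at 0 h. Mt1, its neighbour in the family, read 7.63 and 11.36 against 6.94 and 11.77, a value of 1.10. The zinc transporters Slc39a6 and Slc39a4 of the same list went the other way, at -1.17 and -1.02, both under 2-fold after centring (-0.99 and -0.84), and the median of the list (-0.06 over 20 bright members) turned positive after centring (0.12).

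Acute phase proteins, secreted by the liver in inflammation, lay above the median of all bright genes. Their own median was 0.18 over 31 bright members, with 21 above zero and 4 at least 2-fold higher (against 3.24% of all bright genes). It stayed positive under each scaling. Saa3, a serum amyloid protein, read 7.17 and 9.25 in control liver and 7.18 and 11.02 in knockdown liver, a value of 1.76. The pools were alike at 0 h, and the gap lay wholly at 30 h. Cd14, the endotoxin coreceptor, read 3.37 and 4.91 against 3.49 and 6.26, a value of 1.23. A2m (1.45) and Lcn2 (1.01) were the others. Lcn2, an iron-scavenging protein, ended at 12.09 and 12.08, and its gap was at 0 h. Serpina3n (0.87) and Orm2 (0.79) stayed under 2-fold, and Orm3 was at -1.03, or -0.85 after centring.

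Feedback genes of NF-kappaB had a median of 0.16 over 17 bright members. Tnfaip3, which switches that pathway off, read 3.45 and 3.62 in control liver and 3.37 and 4.99 in knockdown liver, a value of 1.45. It alone of the 17 was past 2-fold. With only genes above percentile 75 of the level kept, the median of the list was -0.05.

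Immediate early genes, transcription factors and regulators that answer growth signals within minutes, had 7 of 28 bright members at least 2-fold higher and 1 lower, against 3.24% and 7.43% of all bright genes. Their median was 0.02, and -0.01 with dim values raised. Myc read 4.43 and 4.56 in control liver and 3.88 and 5.54 in knockdown liver, a value of 1.53. Ier3, an early gene linked to cell survival, read 4.31 and 4.30 against 3.19 and 4.72, a value of 1.54, or 0.94 with dim values raised. In both genes the control pools were level, while the knockdown pool was lower at 0 h and higher at 30 h. Ier5 (1.52), Rhob (1.34), Egr3 (1.24) and Fosb (1.18) were further higher members. Egr3 has several probe sets, and their mean gave 0.57. Ccn1, a matricellular protein and YAP target, was the lower one at -1.76, with 5.57 and 6.49 in control liver and 6.89 and 6.05 in knockdown liver.

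Chaperones of the endoplasmic reticulum had a median of 0.08 over 34 bright members, with 22 above zero. Of the 34, 3 were at least 2-fold higher and 0 lower, against 3.24% and 7.43% of all bright genes. Creld2, a protein disulfide isomerase of the stress response, read 6.97 and 6.71 in control liver and 5.80 and 7.05 in knockdown liver, a value of 1.51. Syvn1, a ubiquitin ligase of protein disposal, read 7.21 and 5.98 against 6.11 and 5.91, a value of 1.03. Dnajb9, a cochaperone of BiP, read 7.29 and 6.75 against 6.48 and 6.95, a value of 1.01. In all 3 the gap was larger at 0 h, where the knockdown pool was the lower one.

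Genes of retinoic acid metabolism and signalling were mixed. The list median was -0.21 over 29 bright members, with 3 at least 2-fold higher and 2 lower. Cyp26a1, which breaks down retinoic acid and is induced by it, read 5.60 and 5.58 in control liver and 3.62 and 5.34 in knockdown liver, a value of 1.74. The receptor gene Rarb, itself a target of the hormone, read 5.48 and 5.45 against 4.00 and 5.34, a value of 1.37. The control pools were level in both, and only the knockdown pool at 0 h stood apart, below the others. Dhrs3, which turns retinaldehyde back into retinol, read 6.66 and 6.2 against 7.52 and 5.92, a value of -1.14. Rdh16, a retinol dehydrogenase, was at -1.02. After centring these stood at -0.96 and -0.84. Stra6, a receptor for the retinol carrier, was at 1.21.

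Fetal liver genes had the highest list median, 0.78, from only 7 bright members. Over all 16 measured members it was 0.31, and with dim values raised the 7 stood at 0.30. Hmga2, a chromatin protein of embryonic tissues, was at 1.17, Mest at 0.81 and Igf2 at 0.78; Mest was at 0.01 with dim values raised. Collagen and laminin chains had a median of 0.10 over 31 bright members, with Col22a1 at 1.56.

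**Figure D4:**
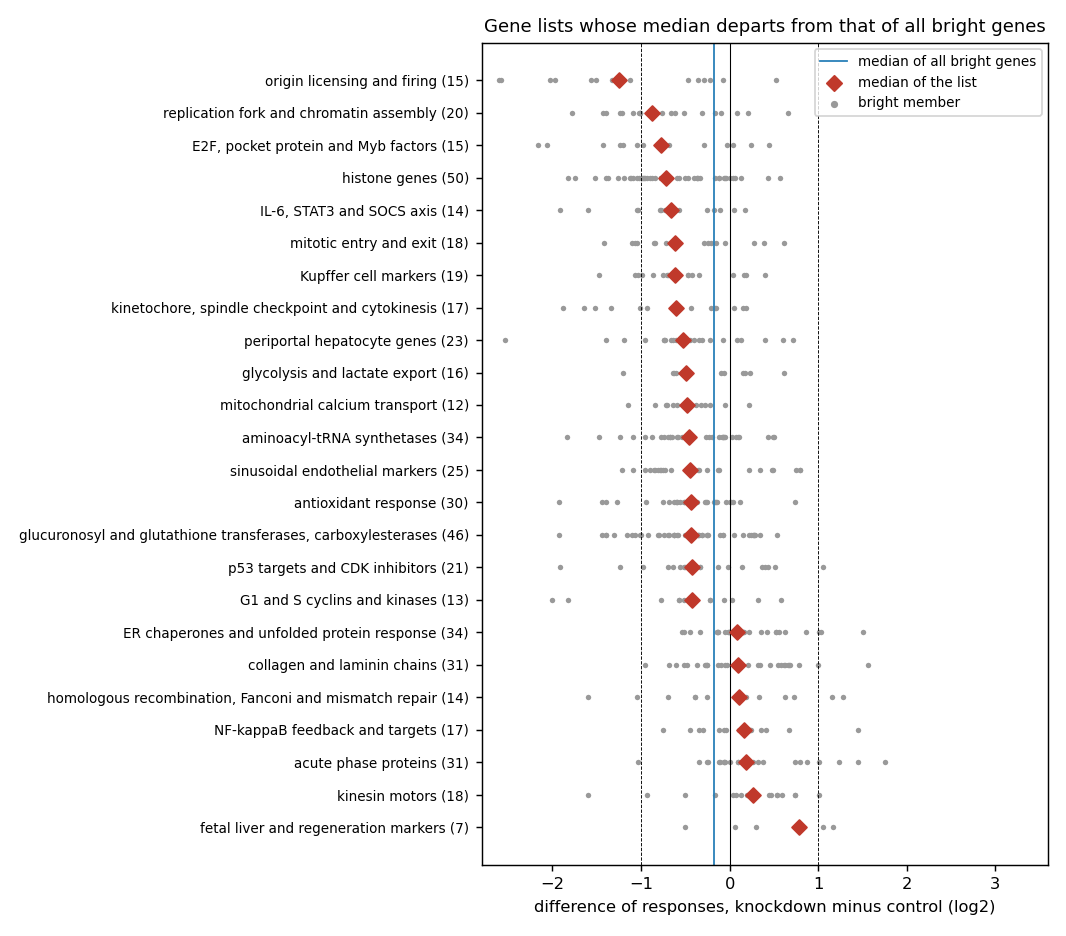
Difference of responses (log2) of the bright members (dots) and their median (diamond) for the 24 lists with at least 6 bright members whose median departs by at least 0.25 from that of all bright genes (vertical line at -0.18). The dashed lines mark 2-fold, and the number of bright members follows each name. The 17 lists left of the line start with origin licensing at -1.25, and the 7 lists right of it end with fetal liver genes at 0.78.

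Genes of mitochondrial calcium transport, listed together with carriers that calcium controls but that do not carry it, were measured as the surroundings of Mcu. Of 12 bright members 11 were below zero, against 63.2% of all bright genes, and their median was -0.48, or -0.23 after loess. Slc25a24, which exchanges ATP-Mg for phosphate under calcium control, read 3.97 and 4.64 in control liver and 4.29 and 3.81 in knockdown liver, a value of -1.15. It was the one member past 2-fold and stood at -0.97 after centring. Its relatives Slc25a25 and Slc25a23 were at -0.84 and -0.71. Mcur1, a regulator of the uniporter, was at -0.72, the outer membrane channel Vdac1 at -0.64 and the exchanger Letm1 at 0.22. Micu2 was at -0.59, Smdt1 at -0.28 and Slc8b1 at -0.05. Subunits of the respiratory chain had a median of -0.24 over 78 bright members, close to that of all bright genes, with 1 higher and 0 lower at 2-fold. Mitochondrial ribosomal proteins had -0.26 over 74, also close to the median of all bright genes. At 2-fold 5 of the 74 were lower, against 7.43% of all bright genes, and 3 after centring, loess or quantile normalization. The lowest was Mrpl22, which read 4.66 and 5.54 in control liver and 5.24 and 4.25 in knockdown liver, a value of -1.87.

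Of the 66 lists with at least 6 bright members, 17 had a median at least 0.25 below that of all bright genes, 7 at least 0.25 above it, and 42 lay within 0.25. Hepatocyte markers, urea cycle and amino acid breakdown, fatty acid oxidation and cytosolic ribosomal proteins were among the 42, with medians of -0.17, -0.26, -0.24 and -0.17. The lists held 146 of the 725 lower and 37 of the 316 higher genes. The other 579 and 279 belonged to no list.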

How the data were processed

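The deposited values are log2 levels, rounded to 2 decimals. Per the submitters' processing notes, the authors ran RMA with the Affymetrix Expression Console. Versions, settings and genome build: not given in the sources used here. RMA equalises the arrays, so a change shared by all genes cannot be seen. The 4 arrays had medians of 3.75 to 3.84 and correlated across probe sets with r of 0.953 to 0.974. Of 22206 probe sets, 19572 carried 1 symbol in the platform annotation and gave 19505 genes; 2634 were unnamed. With 1 pooled array per group no test was run. The precision is limited by the number of arrays.

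Genes were named by rule: the 20 highest and 20 lowest bright genes without predicted, receptor-cluster or structural RNA genes, up to 6 bright members of each of 70 lists in the direction of its median and up to 3 past 2-fold in the other, the leading genes of each response class, and mitochondrial calcium genes. Members, lists and rules were chosen with earlier results of these data known. Alternatives were other filters, thresholds and probe-set rules, median centring, cyclic loess and quantile normalization (limma 3.58.1), and a floor on dim values. The calculation was tested on simulated data. Promoters came from RefSeq on GRCm38.p6; 15691 genes had one. One label item stays unreported.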

Additional observations from a re-analysis of the deposited data

Results flagged for a closer look

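In 6 genes the response was at least 2-fold in each genotype and of opposite sign. Between single arrays this difference was not tested. Higher at 30 h in control liver and lower in knockdown liver were Csk (difference of responses -2.73), the GTPase Rab11a (-2.59), the membrane contact protein Mospd2 (-2.42) and the splicing kinase Clk4 (-2.17). Mospd2 read 4.63 and 5.78 in control liver at 0 and 30 h and 6.15 and 4.88 in knockdown liver, and Clk4 read 4.34 and 5.36 against 4.75 and 3.6. The reverse held for Kiss1r, the kisspeptin receptor (2.44), which read 4.58 and 3.32 against 3.17 and 4.35, and for the transporter Abcc10 (2.07), which read 5.04 and 3.98 against 4.14 and 5.15. With dim values raised, Kiss1r stood at 1.35.

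Of the 2634 probe sets with no gene name, 398 (15.1%) had a difference of responses of at least 2-fold, 312 higher and 86 lower. Their median level was 3.53, in the range where higher values prevail among named genes as well.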

How the results depend on the processing

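On the deposited scale the counts past 2-fold were 316 higher and 725 lower. The counts moved to 1171 and 1136 with no filter on dim genes, 42 and 287 among genes above percentile 75, 492 and 399 after median centring, 940 and 2200 at 1.5-fold and 46 and 110 at 3-fold. They were 370 and 523 after cyclic loess, 372 and 522 after quantile normalization, 313 and 725 with probe sets averaged, and 244 and 629 with dim values raised. All 205 named genes past 2-fold kept their sign under centring, loess, quantile normalization, probe-set means and the floor, and 133 stayed past 2-fold in each. The medians of the licensing, fork, E2F, mitotic, kinetochore and histone lists stayed negative in every setting run; the filter at percentile 75 left too few members for 4 of them. Of the bright cell cycle genes 41 were 2-fold lower, a count not formed under centring, loess or quantile normalization. In alternatives added after the values were seen, the count was 44 with recombination and kinesin lists joined, 24 among members also bright at 0 h and 68 with dim members included. No paired analysis was possible because each group was 1 pooled array, and for the same reason no array could be left out. Values near the dim end of the scale limit folds of genes low at 0 h, such as Cdt1 and Slc19a1.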

Other observations

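Other lists held genes past 2-fold that no group above describes. In the list of growth factor and insulin signalling, the transcription factor Foxo1 read 4.75 and 5.63 in control liver and 5.42 and 4.56 in knockdown liver, a difference of responses of -1.74. Smad2, which carries the signal of TGF-beta and activin, read 4.14 and 5.34 against 4.86 and 4.44, a value of -1.62. Both were the higher of the pair in knockdown liver at 0 h and the lower at 30 h. The clock gene Clock was at -1.44, the clock-controlled ubiquitin protease Usp2 at -1.45, and Cldn2, a tight junction gene of pericentral hepatocytes, at -1.76. The aminoacyl-tRNA synthetase list had a median of -0.46 over 34 bright members, 4 of them at least 2-fold lower, with the complex member Aimp1 at -1.84 (-1.09 with dim values raised). Above zero were the chemokine Cx3cl1 at 1.36, elastin (Eln) at 1.49 and the transferrin receptor Tfrc at 1.26, the last at 0.78 with dim values raised. Several chosen lists held such single genes while their medians lay within 0.25 of that of all bright genes.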
